A study of Mus musculus with 8 samples.

Results

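The glycosyltransferase genes of the endoplasmic reticulum (ER) and Golgi were taken as all protein-coding genes of the deposited tables whose symbols begin with the stems Alg, Dpm, Mgat, Man1, Man2a, B3galt, B3gnt, B4galt, B4galnt, B4gat, Galnt, St3gal, St6gal, St8sia, Fut, Ext or Extl, together with Stt3a, Stt3b, Rpn1, Rpn2, Ddost and Magt1. The names select 98 of the 14709 genes listed in either table, and the rule uses symbols, not measured values, although it was written with earlier results of these data known. A few of them, such as the mannosidases and the non-catalytic subunits of the oligosaccharyltransferase, act with glycosyltransferases without transferring a sugar themselves.

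The study asked how mouse embryonic stem cells (mESCs) that hold KLF3 protein, a Krüppel-like zinc finger transcription factor, differ from other mESCs. In the first experiment, a line with a reporter was sorted by flow cytometry into KLF3-GFP-negative and KLF3-GFP-positive cells, 500 cells for each of 2 samples per condition, and sequenced by Smart-seq2, a method for little RNA. The reporter is the N-terminal part of KLF3 without its DNA-binding domain, fused to Emerald GFP under the CAGGS promoter, and the same cells carry DsRed under the EF1α promoter. In the second, GFP or codon-optimised KLF3 was induced with doxycycline for 72 h in R26 mESCs (GFP-OE-72h and KLF3-OE-72h, 2 samples each), and poly(A) RNA was sequenced. R26 cells carry the transactivator M2rtTA at Rosa26 and a recombination site at Col1a1 that took up the transgene, and clones were picked after selection on feeder cells. All cells came from a cross of C57BL/6 and 129/sv and were grown on gelatin in serum with leukaemia inhibitory factor.

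Most proteins that enter the secretory pathway receive sugars. For N-glycosylation, the Alg and Dpm enzymes build an oligosaccharide on the lipid dolichol, the oligosaccharyltransferase moves it to asparagine, and mannosidases and Mgat enzymes trim and branch it in the Golgi. Other families start mucin-type O-glycans on serine or threonine (Galnt), extend chains with galactose and N-acetylglucosamine (GlcNAc), build glycosphingolipids and heparan sulphate, or cap chains with sialic acid and fucose. Glycans of this kind, among them the fucosylated SSEA-1 epitope of mESCs, are surface markers of pluripotent and early embryonic cells.

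Each condition was represented by 1 column of FPKM (fragment numbers scaled to the length of the transcript and the size of the library), the authors' mean of 2 replicates. The values therefore carry no SD, the number of reads behind them is unknown, and no test against the spread between replicates could be made. The sorted table listed 86 of the members and the overexpression table all 98. Differences were taken within each experiment as log2(FPKM + 1) of the positive or KLF3-OE-72h column minus that of its control, for genes that averaged 1 FPKM or more over both columns, which were 61 members in sorted and 73 in overexpressing cells. On this scale, which understates changes of low values, genes past 2-fold are called upregulated and genes below 0.5-fold downregulated. The words within 2-fold also refer to this scale. The FPKM themselves can differ by more, as for Man2a1 in sorted cells (6.2 and 2.83 FPKM).

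Facts of the whole tables bear on every value below. The 13 primitive endoderm markers examined were all upregulated in both experiments, from a summed 47.0 to 1808.41 FPKM in sorted cells, where Cubn and Foxa2 had the table's lowest value in the negative column, and from 197.14 to 807.9 FPKM on overexpression. Of 8 pluripotency markers, 4 were downregulated in sorted and 3 in overexpressing cells, and none was upregulated. Their sum went from 21027.78 to 11191.87 FPKM in sorted cells, but from 5589.49 to 7789.15 FPKM on overexpression, where the median difference was -0.76. There the most abundant, Dppa5a (3793.78 to 6334.07 FPKM, 0.74), and Pou5f1 (883.19 to 989.69 FPKM, 0.16) lay above 0 and the others below. Trophoblast markers summed to 6.82 and 4.21 FPKM in sorted cells, with Cdx2 and Hand1 at the lowest value in the negative column, and to 35.32 and 32.82 FPKM on overexpression, where Tfap2c had 26.24 and 13.1 FPKM while 1 of the 5 compared (Hand1, 0.83 to 4.16 FPKM) was upregulated, none was downregulated and the median difference was 0.83. The fibroblast and feeder markers, of which 3 of 8 were listed for sorted and 4 of 8 for overexpressing cells, summed to at most 5.08 FPKM in any column. Ribosomal protein genes took 30.34% of the summed FPKM in negative and 26.21% in positive sorted cells, and 28.9% in GFP-OE-72h and 38.93% in KLF3-OE-72h. Of Y-linked genes, Uty had 3.56 FPKM and Ddx3y 3.34 FPKM in GFP-OE-72h and both had the lowest value, 0.1, in KLF3-OE-72h, so the overexpression columns differ in Y-linked transcripts besides the transgene. The Klf3 gene had 107.04 and 122.29 FPKM in sorted cells, where reads of the KLF3 part of the reporter may be counted with it. On overexpression it had 58.66 and 47.76 FPKM, and reads of the codon-optimised transgene need not align to the gene. The part of these differences in the results was not tested.

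In KLF3-GFP-positive mESCs, most glycosyltransferase genes stood higher than in KLF3-GFP-negative mESCs. Of the 61 members compared, 23 were upregulated (37.7%), where 13.8% of all genes were, and 2 were downregulated (3.3%), where 8.32% of all genes were. The class counts in sorted cells given below stand beside these same shares of all genes. The median difference of the members was 0.83 on the log2(FPKM + 1) scale, against 0.03 for all 9212 genes. Above 0 lay 48 of the 61 members and 4766 of the 9212 genes. The minimum expression was reached only through the higher column by some members, and 5 of the 23 upregulated had under 1 FPKM in negative cells and both downregulated had under 1 FPKM in positive cells. Summed over all 86 listed members, the FPKM went from 786.0 to 1627.6, which is 0.087% and 0.172% of the total. With bulk RNA from sorted pools, fewer cells of a type and less RNA per cell cannot be told apart.

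**Figure D1:**
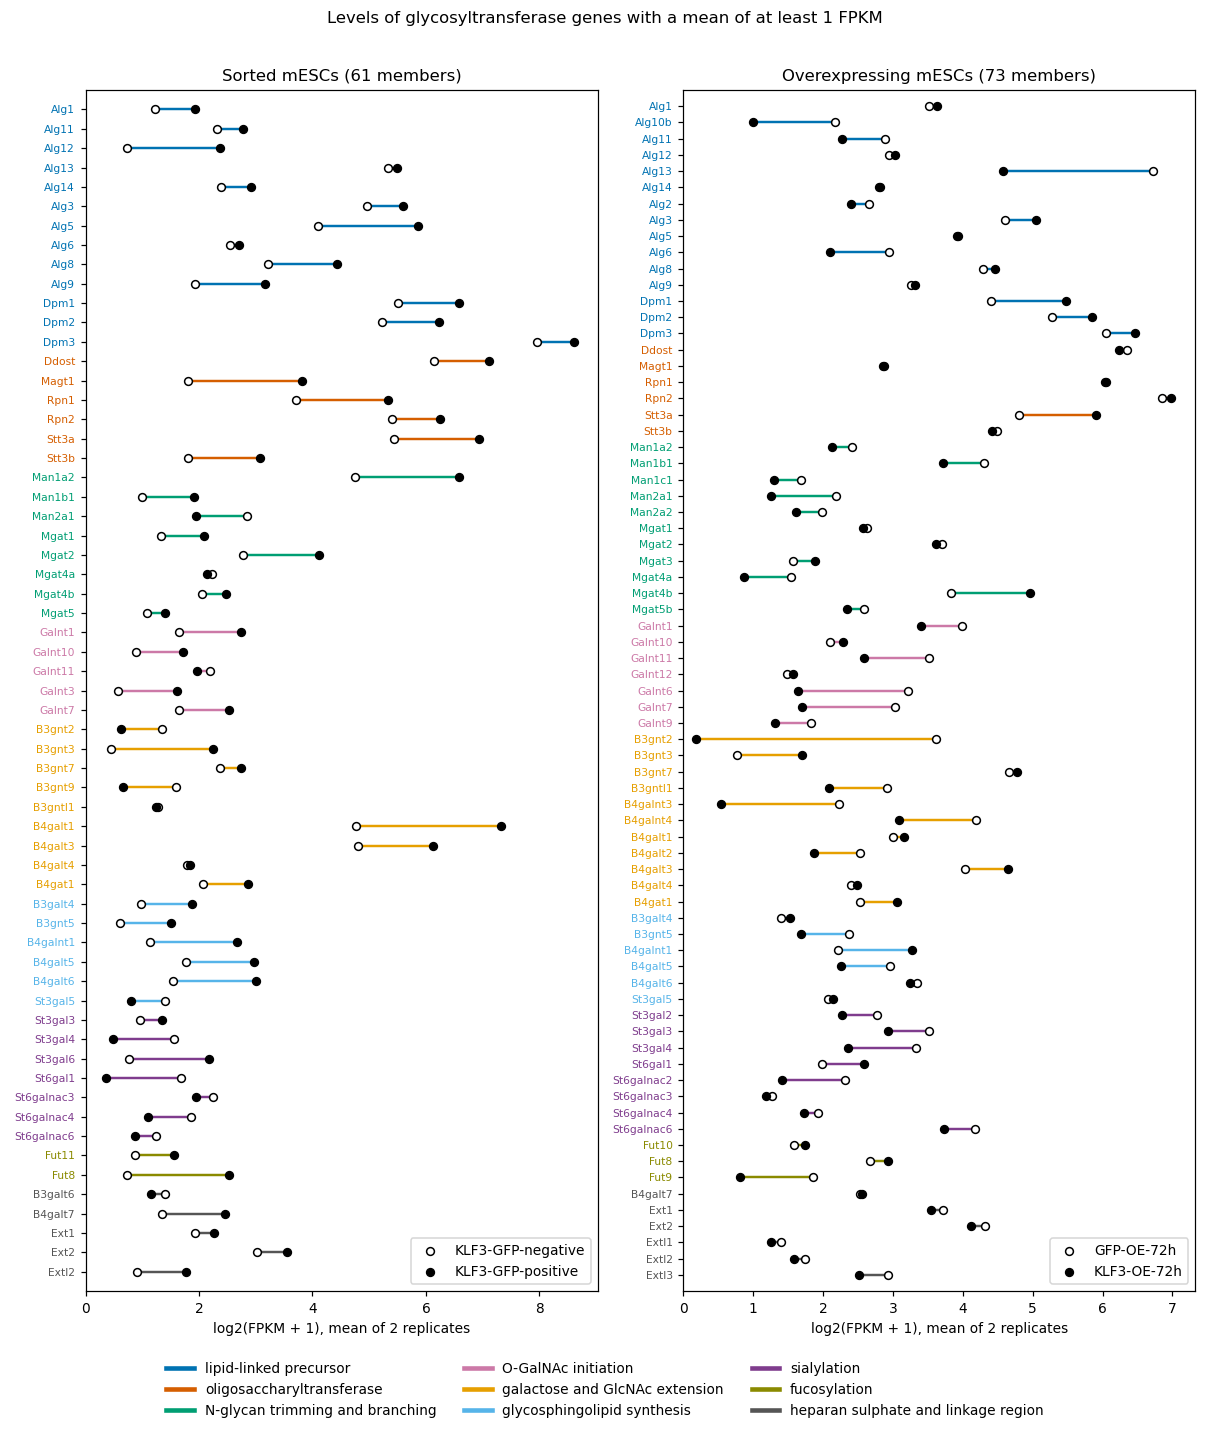
Levels of the glycosyltransferase genes averaging 1 FPKM or more, as log2(FPKM + 1) on the horizontal axes, for the 61 members in sorted mESCs (left) and the 73 members in overexpressing mESCs (right). Open circles are KLF3-GFP-negative or GFP-OE-72h, filled circles KLF3-GFP-positive or KLF3-OE-72h, each a mean of 2 replicates without an error bar, and colours mark the glycan class. Filled circles lie to the right for 48 members on the left panel and for 27 members on the right panel. Of all genes compared, 4766 of 9212 in sorted and 4524 of 11179 in overexpressing cells lay above 0.

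The first steps of N-glycosylation lay on 1 side. All 13 precursor genes compared lay above 0, with a median of 0.71, and 6 were upregulated. Alg5, which makes the glucose donor dolichyl-phosphate glucose, went from 16.21 FPKM in negative to 56.77 FPKM in positive cells, a difference of 1.75. Alg12, a mannosyltransferase of the ER lumen, went from 0.66 to 4.16 FPKM (1.64), so its control value lay below 1 FPKM. The mannosyltransferase Alg9 went from 2.82 to 7.94 FPKM and the glucosyltransferase Alg8 from 8.26 to 20.65 FPKM, both with a difference of 1.23. Alg9 shares 12.9% of its exon bases with 1110032A03Rik on the opposite strand, which had 2.33 and 18.61 FPKM, and whether the counting used the strand is not given in the sources used here.

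Dolichyl-phosphate mannose is the mannose donor in the ER lumen, and its synthase consists of the catalytic Dpm1 and the membrane subunits Dpm2 and Dpm3. Dpm1 went from 44.52 to 94.39 FPKM (1.07) and Dpm2 from 36.61 to 74.54 FPKM (1.01), both within 2-fold after quantile normalization (0.94 and 0.88). Dpm3 was the most abundant of all members in sorted cells with 249.02 and 390.67 FPKM, and its difference of 0.65 stayed within 2-fold. Lowest in this class were Alg13 (0.15, 39.29 and 43.77 FPKM) and Alg6 (0.15, 4.85 and 5.51 FPKM). Alg13 and Alg14 together add the second GlcNAc of the precursor.

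The oligosaccharyltransferase had a median of 1.39, and all of its 6 members lay between 0.84 and 2.004. Its catalytic subunit comes in 2 forms. Stt3a (ENSMUSG00000032116, minus strand of chromosome 9 of mm10 from 36729344 to 36767679), the form that sits at the translocon and glycosylates proteins during their entry, went from 42.51 to 121.82 FPKM (1.497). Stt3b, which also acts after translocation, was far lower and went from 2.49 to 7.46 FPKM (1.28). Magt1 (ENSMUSG00000031232, minus strand of chromosome X from 105968084 to 106011906), the oxidoreductase subunit of the Stt3b complex, showed the largest difference of the class (2.5 and 13.04 FPKM, 2.004). Rpn1 (ribophorin I), which holds substrates to the complex, went from 12 to 39.45 FPKM (1.64). Ddost with 69.25 and 136.75 FPKM (0.97) and Rpn2 with 41.39 and 75.08 FPKM (0.84) stayed within 2-fold. The 6 genes summed to 170.14 FPKM in the negative and 393.6 FPKM in the positive column.

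Because the precursor and oligosaccharyltransferase genes stood higher together, their promoters were read from RefSeq sequences of GRCm38.p6, the mm10 assembly, in windows from 250 bases before to 50 bases after each start. Windows were found for 75 of the 98 members. The ER stress response element, CCAAT and CCACG with 9 bases of any kind between them, searched on both strands, marks promoters of the unfolded protein response. It occurred in windows of 37 of 27025 genes (0.137%) and of 1 member, Alg12. The stretch shown lies at chr15:88819469-88819568 on the minus strand, in the direction of Alg12, and the capitals mark the element from base -220 to base -202 before the start.
Alg12: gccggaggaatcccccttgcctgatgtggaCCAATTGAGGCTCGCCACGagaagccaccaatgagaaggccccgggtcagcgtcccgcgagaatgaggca

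No window of the 6 oligosaccharyltransferase genes held the full element. Its second half-site, CCACG, which also lies within the full element, was present for 4 of these 6 genes and for 38 of the 75 members (50.7%). It was present for 35.5% of the 27025 genes with windows, a wider set than the genes compared above. CACCC, the core of the box that Krüppel-like factors bind, was present for 5 of the 6 oligosaccharyltransferase genes, 55 of the 75 members (73.3%) and 59.8% of the 27025 genes. Among members, CACCC was present for 13 of the 19 upregulated in sorted cells (68.4%) and for 25 of the 34 compared and not upregulated (73.5%). CCACG was present for 10 of these 19 (52.6%) and 16 of these 34 (47.1%). The stretches below show part of the windows of 4 of the oligosaccharyltransferase genes, in the direction of each gene. Capitals mark CCACG, and CACCC or its reverse complement GGGTG. The stretches of Stt3a (chr9:36767713-36767792), Stt3b (chr9:115310634-115310713) and Magt1 (chrX:106011963-106012042) are from the minus strand, and that of Rpn1 (chr6:88084323-88084402) is from the plus strand. The window of Magt1 held no CCACG, and its other CACCC, from base -19 to base -15, lies outside the stretch shown.
Stt3a: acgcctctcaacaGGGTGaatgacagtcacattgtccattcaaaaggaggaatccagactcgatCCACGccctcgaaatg
Stt3b: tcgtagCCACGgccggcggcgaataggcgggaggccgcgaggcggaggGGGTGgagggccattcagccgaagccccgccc
Rpn1: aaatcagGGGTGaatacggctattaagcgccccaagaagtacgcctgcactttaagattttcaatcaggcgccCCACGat
Magt1: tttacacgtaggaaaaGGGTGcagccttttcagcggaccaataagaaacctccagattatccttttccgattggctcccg

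A match of these letters is a description of the window and not a measured binding site.

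Trimming and branching enzymes were mixed in the sorted cells, with 2 of 8 upregulated and a median of 0.60. The Golgi mannosidase Man1a2, which trims the chain before branching, was the most abundant gene of the class and went from 25.97 to 94.65 FPKM (1.83). Mgat2, the GlcNAc transferase needed for complex chains with more than 1 branch, went from 5.84 to 16.23 FPKM (1.33). In the opposite direction lay Man2a1, which removes mannose between the steps of Mgat1 and Mgat2, with 6.20 and 2.83 FPKM (-0.91, within 2-fold). Mgat4a had 3.68 and 3.43 FPKM (-0.08). The later branching enzyme Mgat5 had 1.11 and 1.64 FPKM (0.32).

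In chain extension, 3 of 9 genes were upregulated. B4galt1 (ENSMUSG00000028413, minus strand of chromosome 4 from 40804602 to 40854005), the galactosyltransferase that makes N-acetyllactosamine and, with alpha-lactalbumin, lactose, went from 26.30 to 159.72 FPKM (2.56), and its related gene B4galt3 went from 26.86 to 68.97 FPKM (1.33). B3gnt3, a GlcNAc transferase of mucin-type core extension, went from 0.36 to 3.77 FPKM (1.81). The class was not uniform, since its median over 9 genes was 0.38. B3gnt9 had 2.02 and 0.57 FPKM (-0.94), and the poly-N-acetyllactosamine synthase B3gnt2 had 1.53 and 0.54 FPKM (-0.72), neither past the limit. In GENCODE M21, B3gnt2 shares 58.6% of its exon bases with Gm28048 on the same strand. The M21 gene lies from 22759738 to 22860961, and the listed gene from 22834747 to 22860961, so the overlap of the listed gene may differ. The sum of both genes, 6.42 and 2.44 FPKM (-1.109), was below 0.5-fold.

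Of the O-GalNAc initiating enzymes, which attach the first sugar of mucin-type chains, 2 of 5 were upregulated, with a median of 0.88 over these 5. Galnt1, the most abundant of them in KLF3-GFP-positive cells, went from 2.13 to 5.70 FPKM (1.10) and Galnt3 from 0.48 to 2.05 FPKM (1.04). With quantile normalization both were within 2-fold (0.95 and 0.99), and without a minimum expression the median over 9 genes was -0.039. Galnt11 had 3.55 and 2.91 FPKM (-0.22). For glycosphingolipids, 3 of 6 genes were upregulated and the median was 1.06. B4galt5 (2.39 to 6.81 FPKM, 1.20) and B4galt6 (1.92 to 7.06 FPKM, 1.46), the lactosylceramide synthases, and B4galnt1 (1.19 to 5.38 FPKM, 1.54), which makes the gangliosides GM2 and GD2, passed the limit. St3gal5, which makes the ganglioside GM3 from lactosylceramide, lay on the other side with 1.64 and 0.75 FPKM (-0.59).

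Sialylation had a median below 0 in sorted cells (-0.37 over 7 genes) and held both members that were downregulated. St6gal1 (ENSMUSG00000022885, plus strand of chromosome 16 from 23224740 to 23360350), which caps N-glycans with sialic acid, went from 2.19 to 0.28 FPKM (-1.32). St3gal4 went from 1.94 to 0.39 FPKM (-1.08), whereas St3gal6, with a related activity, went from 0.70 to 3.52 FPKM (1.41). St6galnac3, the most abundant of the class, had 3.74 and 2.83 FPKM (-0.31). All of these genes stayed below 4 FPKM in both columns.

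Among fucosyltransferases 2 genes were compared, both below 1 FPKM in negative cells, and without a minimum expression the median over 5 genes was -0.16. Fut8, the core fucosyltransferase of N-glycans, went from 0.65 to 4.77 FPKM (1.81), and Fut11 had 0.82 and 1.93 FPKM (0.69). Of 5 genes for heparan sulphate and its linkage region, B4galt7, which adds the first galactose of the linkage, was upregulated from 1.54 to 4.50 FPKM (1.12, and 0.997 with quantile normalization). The heparan sulphate polymerase subunits Ext1 (2.81 and 3.80 FPKM) and Ext2 (7.16 and 10.78 FPKM, 0.53) stayed within 2-fold, and the median of the class was 0.53.

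**Figure D2:**
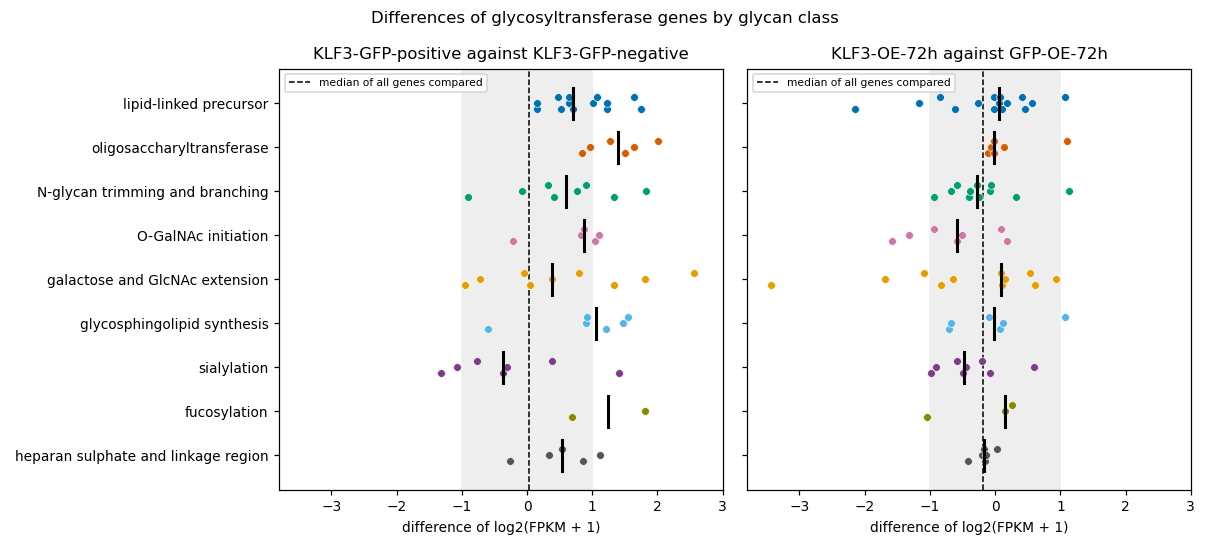
Differences of log2(FPKM + 1) on the horizontal axes for the members of the 9 glycan classes, in sorted (left) and overexpressing mESCs (right). Points are genes, black bars class medians, dashed lines the medians of all genes compared (0.03 and -0.18), and grey marks differences within 2-fold. In sorted cells the bars lie right of the dashed line in every class but sialylation among members averaging 1 FPKM or more, where fucosylation rests on 2 genes, and without that minimum the medians of O-GalNAc initiation (-0.039) and fucosylation (-0.16) also lie below 0, while on overexpression they lie between -0.59 and 0.16.

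On overexpression of KLF3 for 72 h, few members differed by more than 2-fold from GFP-OE-72h. Of the 73 members compared, 4 were upregulated (5.5%, all genes 6.6%) and 8 downregulated (11%, all genes 10.1%), so both shares lay near those of all genes. The median of the members was -0.11, against -0.18 for all 11179 genes. The summed FPKM of the 98 members was 1022.8 in GFP-OE-72h and 988.2 in KLF3-OE-72h, 0.167% and 0.118% of the total. With the columns scaled by median ratios, the median of all genes moved from -0.18 to 0, and 1164 of all genes were upregulated and 699 downregulated instead of 738 and 1133. Under that scaling 5 members were upregulated and 6 downregulated, with quantile normalization 5 and 4, and at a mean of at least 5 FPKM 4 and 4. At that mean 42 members were compared, and 584 of 7659 genes were upregulated and 734 downregulated. Of the 8 downregulated members, 4 had under 1 FPKM in KLF3-OE-72h.

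The 4 upregulated members came from different classes. Stt3a went from 27.00 to 59.26 FPKM (1.11), while the other oligosaccharyltransferase genes lay between -0.11 and 0.13, Rpn2 being the most abundant with 114.48 and 125.76 FPKM. Stt3b had 21.37 and 20.46 FPKM (-0.06) and Magt1 6.36 and 6.27 FPKM (-0.02). Dpm1 went from 20.12 to 43.55 FPKM (1.08), but it shares 12% of its exon bases with Gm20716 on the same strand, which had 19.88 and 7.52 FPKM. The sum of both genes was 40.0 and 51.07 FPKM (0.35), within 2-fold. Mgat4b (ENSMUSG00000036620, plus strand of chromosome 11 from 50210890 to 50235103), which adds a GlcNAc branch to N-glycans, went from 13.23 to 30.30 FPKM (1.14). B4galnt1 (ENSMUSG00000006731, plus strand of chromosome 10 from 127165156 to 127172340) went from 3.64 to 8.71 FPKM (1.07).

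Among precursor genes, Alg13 (ENSMUSG00000041718, plus strand of chromosome X from 144317804 to 144374450) went from 104.78 to 22.88 FPKM (-2.15). Its partner Alg14 had 6.05 and 5.96 FPKM (-0.02). The glucosyltransferase Alg10b, which adds the last glucose, went from 3.49 to 0.99 FPKM (-1.17, and -0.93 with quantile normalization). Besides these and Dpm1, the remaining 12 precursor genes lay between -0.84 (Alg6) and 0.57 (Dpm2). Genes on chromosome X as a whole had a median of -0.29 in this experiment over 361 genes, against -0.18 for all genes. In sorted cells, where X-linked Magt1 was upregulated, 20.6% of 287 genes on chromosome X were upregulated, against 13.8% of all genes.

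In O-GalNAc initiation, 2 of 7 genes were downregulated (all genes 10.1%) and the median was -0.59. Galnt6 (ENSMUSG00000037280, minus strand of chromosome 15 from 100691813 to 100729376) went from 8.31 to 2.11 FPKM (-1.58) and Galnt7, which acts on peptides that already carry GalNAc, from 7.17 to 2.26 FPKM (-1.33, and at the limit with quantile normalization). The most abundant, Galnt1, had 14.83 and 9.53 FPKM (-0.59), and Galnt11 had 10.47 and 5.01 FPKM (-0.93).

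In chain extension, 3 of 11 genes were downregulated (all genes 10.1%). B3gnt2 (ENSMUSG00000051650, minus strand of chromosome 11 from 22834747 to 22860961) had the largest difference of any member in either experiment (11.30 and 0.14 FPKM, -3.43). The sum with the overlapping Gm28048 went from 19.69 to 6.34 FPKM (-1.495), still below 0.5-fold. B4galnt3 went from 3.68 to 0.45 FPKM (-1.69) and B4galnt4 from 17.20 to 7.54 FPKM (-1.09, and -0.90 with median-ratio scaling). Both enzymes add GalNAc to GlcNAc to form the LacdiNAc unit. The most abundant gene of the class, B3gnt7, had 24.44 and 26.47 FPKM (0.11), and B4galt1 had 7 and 7.90 FPKM (0.15). B3gnt3, with 0.70 and 2.25 FPKM (0.93), came near the limit.

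Of the remaining classes, fucosylation had 1 downregulated gene among 3 compared (all genes 10.1%). This was Fut9, which makes the SSEA-1 (Lewis X) epitope of mESCs and went from 2.61 to 0.75 FPKM (-1.05). It was within 2-fold with median-ratio scaling (-0.924), quantile normalization (-0.85) and the span trend removed (-0.788). Fut8 had 5.36 and 6.64 FPKM (0.26). No gene of sialylation passed the limit, 7 of 8 lay below 0 and the median was -0.47. Of all 11179 genes, 6655 lay at or below 0, and their median was -0.18. St3gal4 lay nearest to the limit with 9.09 and 4.11 FPKM (-0.98), and St6galnac6 was the most abundant of the class with 17.07 and 12.29 FPKM (-0.44). St6gal1 lay above 0 with 2.96 and 4.98 FPKM (0.59). Apart from B4galnt1, the glycosphingolipid genes lay between -0.70 (B4galt5) and 0.12 (B3galt4), with B4galt6 at 9.12 and 8.46 FPKM. The heparan sulphate genes lay between -0.42 (Extl3, 6.65 and 4.71 FPKM) and 0.03 (B4galt7), and Ext2 had 19.04 and 16.38 FPKM (-0.21). In trimming and branching, the 10 genes besides Mgat4b lay between -0.94 (Man2a1, 3.55 and 1.38 FPKM) and 0.32 (Mgat3).

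The experiments share no samples, and 55 members could be compared in both. Their differences were correlated across genes with Pearson's r = 0.413 and Spearman's rho = 0.401, given as a description, since genes of a pathway are not independent points. Over all 8887 genes compared in both, r was 0.21 and rho 0.081. Upregulated in both were 3 members (5.45%, all genes 2.55%), namely Stt3a, Dpm1 and B4galnt1. Of these, Dpm1 summed with its overlapping gene (0.35) and B4galnt1 with the span trend removed (0.73) were within 2-fold on overexpression. Another 18 were upregulated in sorted cells and within 2-fold on overexpression, and no member was downregulated in both (all genes 0.686%). Of the 8 members downregulated on overexpression, only 3 could be compared in sorted cells. Alg10b, B4galnt3, B4galnt4, Fut9 and Galnt6 averaged under 1 FPKM there. No member was called in opposite directions, which was not counted over all genes. B3gnt2 summed with Gm28048 was below 0.5-fold in both (-1.109 and -1.495). By sign alone, 22 members were higher on the KLF3 side of both experiments, 22 were higher in the first and lower in the second, 9 were lower in both and 2 were lower in the first only. These signs were not counted over all genes, whose medians were 0.03 and -0.18, so no agreement between the experiments is read from them. The 9 lower in both included St3gal4, Man2a1, B3gnt2, Galnt11 and St6galnac6.

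**Figure D3:**
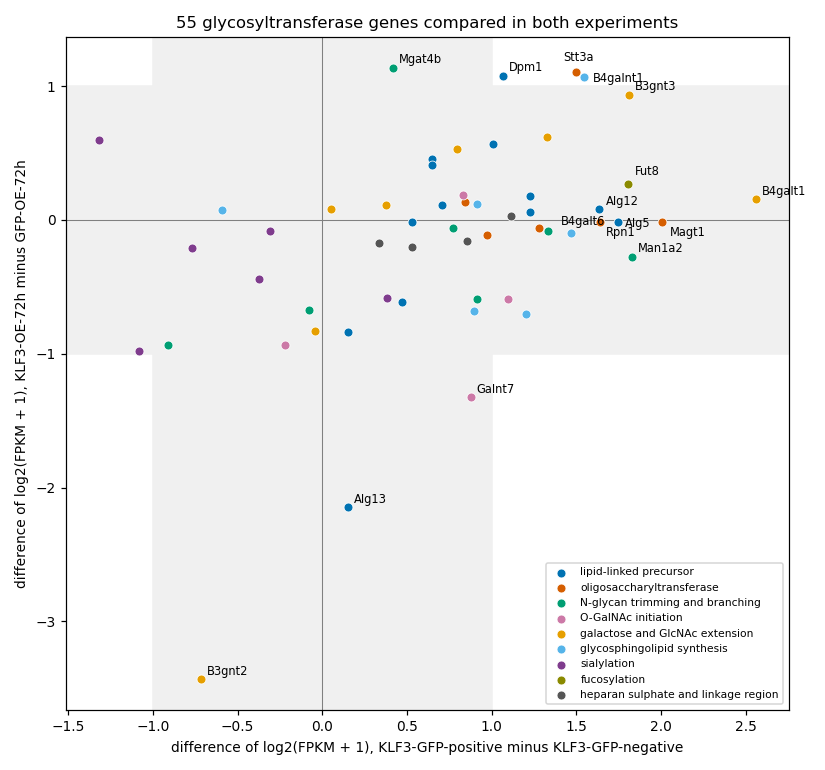
Differences of log2(FPKM + 1) for the 55 members compared in both experiments, KLF3-GFP-positive minus KLF3-GFP-negative on the horizontal and KLF3-OE-72h minus GFP-OE-72h on the vertical axis, coloured by glycan class and with grey bands for differences within 2-fold. The members Stt3a, Dpm1 and B4galnt1 lie in the upper right corner, and most points right of the vertical band lie inside the horizontal one.

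Since FPKM is scaled to length, levels within a family can be set side by side, and the make-up of several families differed between columns. These shares were computed after the values were seen and are not compared between experiments, whose libraries were made differently. Stt3a made up 94.5% of the Stt3a and Stt3b FPKM in negative and 94.2% in positive cells, so both forms stood higher in proportion. On overexpression its share was 55.8% in GFP-OE-72h and 74.3% in KLF3-OE-72h. Among the B4galt genes, B4galt1 made up 42.5% in negative and 63.8% in positive cells, while B4galt3 made up 43.4% and 27.5%. In the overexpression columns B4galt1 had nearly the same share, 13.4% and 14.0%, and B4galt3 had 29.6% and 42.8%.

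The St3gal family summed to 5.88 FPKM in negative and 8.09 FPKM in positive cells. St3gal4 and St3gal5 made up 33.0% and 27.9% in the negative and 4.82% and 9.27% in the positive column, while St3gal6 made up 11.9% and 43.5%. The numbered Galnt genes summed to 11.13 and 18.73 FPKM in sorted cells, and to 50.52 FPKM in GFP-OE-72h and 28.59 FPKM in KLF3-OE-72h. In the Mgat4 pair, Mgat4b had 87.4% in GFP-OE-72h and 97.4% in KLF3-OE-72h.

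**Figure D4:**
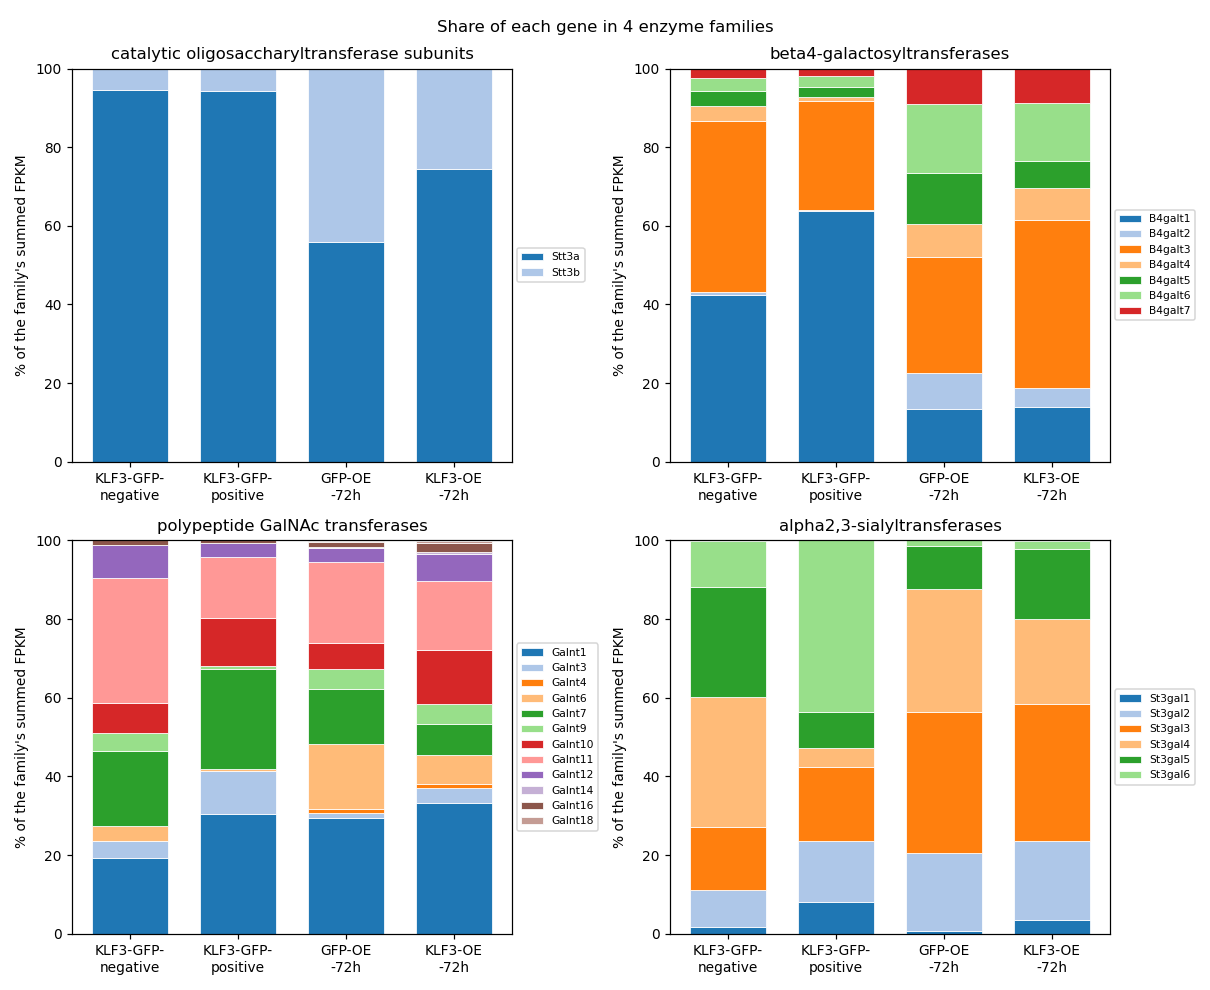
Share of each gene in the summed FPKM of its family (vertical axes, in percent) for the Stt3, B4galt, numbered Galnt and St3gal families, with 1 bar per condition, each from means of 2 replicates. B4galt1 widens from 42.5% to 63.8% in sorted cells, St3gal6 from 11.9% to 43.5%, and Stt3a from 55.8% to 74.3% on overexpression.

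On overexpression, differences of all genes went with the genomic span of the gene. With the genes in 5 groups of equal size from the shortest to the longest span, the medians were 0.35, -0.01, -0.22, -0.44 and -0.49. The members span more of the genome than genes at large, with a median of 37.6 kb against 21.7 kb. Their medians in the same groups were 0.46 (9 genes), -0.11 (13 genes), -0.14 (13 genes), -0.42 (15 genes) and -0.24 (23 genes). With the trend of span removed, B4galnt1 (0.73) and Fut9 (-0.79) were within 2-fold, while Stt3a, Dpm1, Mgat4b, Alg13, Galnt6, Galnt7, B3gnt2, B4galnt3, B4galnt4 and Alg10b remained past the limit. In sorted cells the medians of all genes by group lay between -0.03 and 0.12 and those of the members between 0.46 and 1.12. The part of span in these results was not tested.

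**Figure D5:**
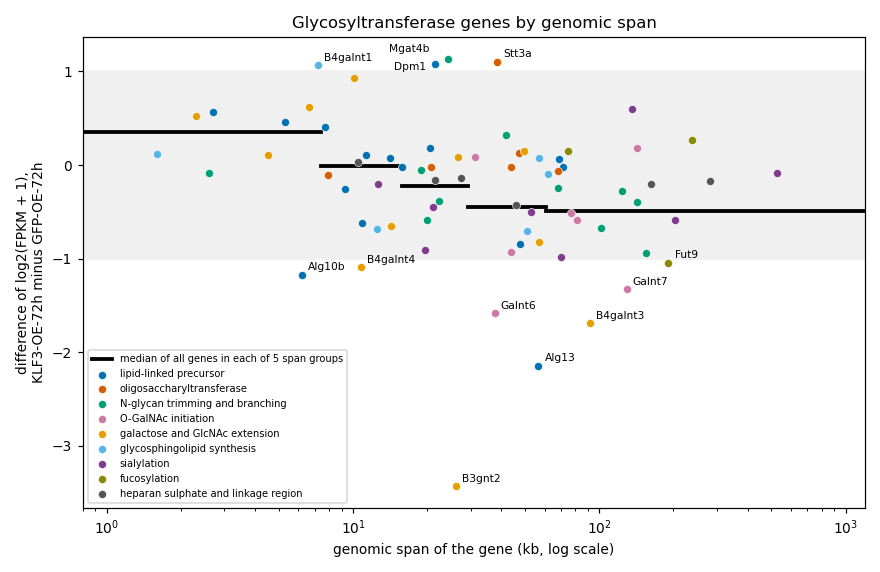
Difference of log2(FPKM + 1), KLF3-OE-72h minus GFP-OE-72h, on the vertical axis against the genomic span of the gene in kb on a logarithmic horizontal axis, for the 73 members compared. Points are members coloured by glycan class, black lines the medians of all genes in each of 5 span groups, which run from 0.35 to -0.49, and grey marks differences within 2-fold.

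Other genes of the glycosylation pathways, a list of 80 non-members, were also mostly higher in KLF3-GFP-positive cells. The list holds genes that supply these enzymes and others that act beside or after them. There, 24 of 65 compared were upregulated (36.9%, all genes 13.8%) and 1 was downregulated (1.5%, all genes 8.32%). Their median was 0.80, against 0.03 for all genes. Largest was Hs3st1, a heparan sulphate sulphotransferase, from 0.16 to 52.63 FPKM (5.53), then the Golgi UDP-galactose transporter Slc35a2 from 0.62 to 12.65 FPKM (3.08) and Gmppb, which makes GDP-mannose, from 7.39 to 30.77 FPKM (1.92). Of 6 accessory oligosaccharyltransferase subunits, 3 were upregulated with a median of 1.004. All 6 lay above 0, as did all 7 genes of dolichol and the early precursor steps (3 upregulated) and all 6 glucosidases and quality control genes compared (2 upregulated). Other lists were mixed. In nucleotide sugar synthesis, 7 of 19 genes lay at or below 0. The median was 0.22 for heparan sulphate modification and 0.37 for O-mannose and O-fucose enzymes, which held the downregulated gene, Mfng (4.62 to 0.57 FPKM, -1.84).

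On overexpression, 4 of 76 of these genes were upregulated (5.3%, all genes 6.6%) and 3 downregulated (3.9%, all genes 10.1%). Their median was -0.07, against -0.18 for all genes. The largest differences were those of Hs3st1 (1.57 to 11.84 FPKM, 2.32) and the heparan sulphate sulphotransferase Ndst1 (1.88 to 0.21 FPKM, -1.25). Of the accessory oligosaccharyltransferase subunits 1 was upregulated, and their median was 0.61, beside -0.02 for the 6 members of the complex. Ugcg, the glucosylceramide synthase that precedes the glycosphingolipid enzymes, had 1.97 and 9.31 FPKM in sorted cells (1.80) and 11.41 and 6.80 FPKM on overexpression (-0.67).

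Members left out of these counts had low values. A mean under 1 FPKM was found for 25 members in each table. In sorted cells, Alg10b, B4galnt2 and St3gal1 stood at the lowest value, 0.1 FPKM, in KLF3-GFP-negative cells, and B4galnt3, B4galnt4, Extl1, Fut7, Fut9, Galnt16, Galnt6 and Mgat3 in KLF3-GFP-positive cells. On overexpression, Galnt14 stood there in GFP-OE-72h and B3galt1, Mgat4e, St8sia3 and St8sia6 in KLF3-OE-72h. The 12 members listed only in the overexpression table, Mgat4e, Galnt4, Galnt14, Galnt18, Fut1, Fut2, Fut4, B3galt1, St8sia1, St8sia3, St8sia5 and St8sia6, had at most 1.28 FPKM there. At least 10 FPKM in a column was reached by 17 members in sorted and 26 members in overexpressing cells.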

How the data were processed

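RNA-seq of 8 samples was analysed, 2 in each of 4 conditions. Per the labels and the study's methods, the authors aligned reads to mm10 with STAR (version 2.6.0 per the labels) using a GENCODE annotation and estimated FPKM with Cufflinks 2.2.1. The deposited tables hold the FPKM of protein-coding genes, averaged over 2 replicates per condition and rounded to 2 decimals, with a lowest value of 0.1. Replicate values and depth were not analysed here, so the replicate test the design would have allowed was replaced by fold limits.

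Differences of log2(FPKM + 1) were computed with Python 3.11.15, pandas 2.3.3 and statsmodels 0.14.6 (lowess trend, fraction 0.3). The limits, above 2-fold and below 0.5-fold, are those of the study without its P value. Members were put in 9 glycan classes. Named were all members past the limits, otherwise the largest difference of a class, the most abundant member, and the 3 largest of the other pathway genes, of which 1 is not reported here. Other members were named after their values were seen. Members and lists were chosen with earlier results of these data known. Alternatives were another or no pseudocount, no minimum or a mean of 5 FPKM, median-ratio scaling, quantile normalization, and removal of the span trend. Exon overlaps came from GENCODE M21, promoters from RefSeq. The listed position equalled that of M21 for 66 of 86 members in sorted and 73 of 98 in overexpressing cells. The calculations were tested on simulated data. As replicates were labelled biological and only their means were used, no P values are given.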

Additional observations from a re-analysis of the deposited data

How the results depend on the processing

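In sorted cells the median of the members was 1.02 with a pseudocount of 0.1, 1.07 with none, 0.50 without a minimum expression, 1.15 with a mean of at least 5 FPKM, 0.81 with median-ratio scaling, 0.72 with quantile normalization and 0.79 with the span trend removed. Upregulated members numbered 18 to 32, except 12 of 20 compared at a mean of 5 FPKM, and downregulated members 7, 7, 2, 0, 2, 4 and 2 in that order. Of all genes, 1662, 1713, 1320, 840, 1222, 1088 and 1265 were upregulated in that order. Downregulated were 1049, 1084, 811, 417, 800, 946 and 759. The genes compared were 9212, but 13056 without a minimum and 5456 at a mean of 5 FPKM. Without a minimum expression, the medians of O-GalNAc initiation (-0.039) and fucosylation (-0.16) changed sign. With a pseudocount of 0.1 or none the order of classes and genes also moved, the glycosphingolipid median (1.56 and 1.66) exceeding that of the oligosaccharyltransferase (1.53 and 1.55), and the difference of B3gnt3 (3.07 and 3.39) exceeding that of B4galt1 (2.598 and 2.602). On overexpression the median of the members was -0.13, -0.14, -0.082, -0.038, 0.04, 0.068 and -0.13 in the same order, with 5, 5, 4, 4, 5, 5 and 3 upregulated and 13, 15, 8, 4, 6, 4 and 7 downregulated members. Relative to the median of all genes, which scaling by median ratios set to 0 and quantile normalization to -0.03, it stayed above that median in each setting. Class medians changed sign with median-ratio scaling (oligosaccharyltransferase 0.18, glycosphingolipids 0.16), quantile normalization (trimming and branching 0.045, glycosphingolipids 0.27, heparan sulphate 0.074) and removal of the span trend (lipid-linked precursor -0.056, oligosaccharyltransferase 0.25, extension -0.36). The counts over all genes on overexpression moved too. With a pseudocount of 0.1, 923 of 11179 genes were upregulated and 1819 downregulated, and with none 955 and 1912. At a mean of at least 5 FPKM, 42 members were compared, and 584 of 7659 genes were upregulated and 734 downregulated. Quantile normalization gave 800 upregulated and 711 downregulated genes. The causes were not tested.

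Of 37 calls of named members, 26 were kept under every alternative that compares them. In sorted cells Dpm2 lost its call with median-ratio scaling, and B4galt7, Dpm1, Dpm2, Galnt1 and Galnt3 with quantile normalization. On overexpression B4galnt4 and Fut9 lost theirs with both scalings, Alg10b and Galnt7 with quantile normalization, B4galnt1 and Fut9 with the span trend removed, and Dpm1 when summed with its overlapping gene, an alternative chosen after seeing the data. St3gal4 gained a call with a pseudocount of 0.1 (-1.13) and with none (-1.15), and Ddost in sorted cells with the span trend removed (1.005). No paired analysis was possible because each condition is 1 averaged column, and leaving out replicates was not run for the same reason.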
